A study of Mus musculus with 3 samples.

Results

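The miR-15 family is a group of small RNAs that are alike near their 5′ end. It was represented here by 5 mature miRNAs, taken by their miRBase accessions: miR-15a-5p (MIMAT0000526), miR-15b-5p (MIMAT0000124), miR-16-5p (MIMAT0000527), miR-195a-5p (MIMAT0000225) and miR-497a-5p (MIMAT0003453). These are 5 of the 1900 mature accessions in the count table, of which 851 had at least 1 read. They were taken by name, with no threshold on their counts. Small RNA was sequenced from hearts of wild-type C57BL/6 mice at postnatal day 1 (P1), day 7 (P7) and day 28 (P28), with 1 library per age and no treatment or engineered allele in any of them. The study describes the tissue as cardiac ventricles and followed miRNAs through the weeks of postnatal heart growth. With 1 library per age, no difference below has a replicate check. Whether a library came from 1 heart or from a pool is not given in the sources used here.

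A miRNA guides the silencing complex to messenger RNAs, mainly by pairing of its seed, the bases near its 5′ end, with sites in the message. MicroRNAs that share a seed can share targets, which is why the members are treated as a family. The family is best known as a brake on the cell cycle, with cyclins, cyclin-dependent kinases and a checkpoint kinase among its known targets. In the mouse heart, cardiomyocytes stop dividing soon after birth, and miR-195a has been linked with that exit.

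The sequences show what the members share and where they differ. They are printed 5′ to 3′ from RefSeq (GRCm38.p6), with the seed (bases 2 to 8) in capitals.
miR-15a-5p: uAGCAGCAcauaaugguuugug
miR-15b-5p: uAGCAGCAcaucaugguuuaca
miR-16-5p: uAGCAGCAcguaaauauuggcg
miR-195a-5p: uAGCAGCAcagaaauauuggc
miR-497a-5p: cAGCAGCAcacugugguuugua
All 5 had the same seed and also the same base at position 9. Outside these positions they differed more, and some formed near pairs. miR-16-5p and miR-195a-5p differed at 2 of 21 positions, G10A and U11G, counted from 1 at the 5′ end with the base of miR-16-5p first. miR-15a-5p and miR-15b-5p differed at 4 of 22 positions, and miR-16-5p and miR-497a-5p, the least alike, at 11 of 22. The closest likeness in sequence therefore joined members that are made from different gene clusters.

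The members come from 3 gene clusters, given in GRCm38.p6, the build that mm10 stands for. Mir15b (chr3:69009772-69009835) and Mir16-2 (chr3:69009902-69009996) lie on the plus strand in introns of Smc4, a gene for a condensin subunit needed for chromosome condensation. Mir16-1 (chr14:61631880-61631972) and Mir15a (chr14:61632027-61632110) lie on the minus strand within the noncoding gene Dleu2, Mir15a in an intron and Mir16-1 over an annotated exon. Mir497 (chr11:70234717-70234800) and Mir195a (chr11:70235042-70235135) lie on the plus strand, 241 bases apart, and overlap no other kind of gene in GENCODE M21. Mature miR-16-5p is thus made from copies on both chromosomes 3 and 14, beside miR-15b and miR-15a, while miR-195a has miR-497a as its neighbour.

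The family rose between P1 and P7, and its make-up shifted towards miR-195a-5p. Levels are given as CPM, reads per 1000000 of all reads in the table for that library, with 95% Wilson intervals that cover counting error only. The 5 members together had 850 reads at P1, 2356 at P7, then 2487 at P28. This was 437 CPM at P1 (409 to 468), 956 at P7 (918 to 995), then 875 at P28 (841 to 910). The family was a small part of these libraries at every age, at 0.0437% of reads at P1, 0.0956% at P7, then 0.0875% at P28. As these are whole hearts or ventricles, more cells of a type and more of a miRNA per cell cannot be told apart.

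miR-16-5p, the most abundant member at every age and a miRNA found in most tissues, had 646 reads at P1, 1573 at P7, then 1635 at P28. Its level was 332 CPM (308 to 359), 638 CPM (607 to 670) and 575 CPM (548 to 604) at the 3 ages. P1 was the low library, and the P7 and P28 intervals lay close together without meeting.

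miR-195a-5p, the member most closely tied to cardiomyocyte cell-cycle exit, had only 53 reads at P1, against 462 at P7, then 661 at P28. Its level was 27.3 CPM at P1 (20.8 to 35.7), 187 at P7 (171 to 205), then 233 at P28 (215 to 251). Its place among all accessions moved from 216 at P1 to 115 at P7, then 84 at P28, counted from the most abundant. miR-497a-5p, its neighbour on chromosome 11, was the least abundant member, with 8 reads at P1, 26 at P7, then 39 at P28, or 4.11 CPM (2.09 to 8.12), 10.5 CPM (7.20 to 15.5) and 13.7 CPM (10.04 to 18.8). Both neighbours were lowest at P1 and highest at P28, although the P7 and P28 intervals of miR-497a-5p overlapped.

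miR-15b-5p, from the Smc4 locus, took another course and was highest in the P7 library. It had 115 reads at P1, 247 at P7, then 96 at P28, which gave 59.1 CPM (49.3 to 71.0), 100.2 CPM (88.4 to 113) and 33.8 CPM (27.7 to 41.2). Its 3 intervals did not overlap. miR-15a-5p, from the Dleu2 locus, had 28, 48 and 56 reads, or 14.4 CPM (9.96 to 20.8), 19.5 CPM (14.7 to 25.8) and 19.7 CPM (15.2 to 25.6). Its intervals overlapped at all ages, and its ratios between libraries are given further on.

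**Figure D1:**
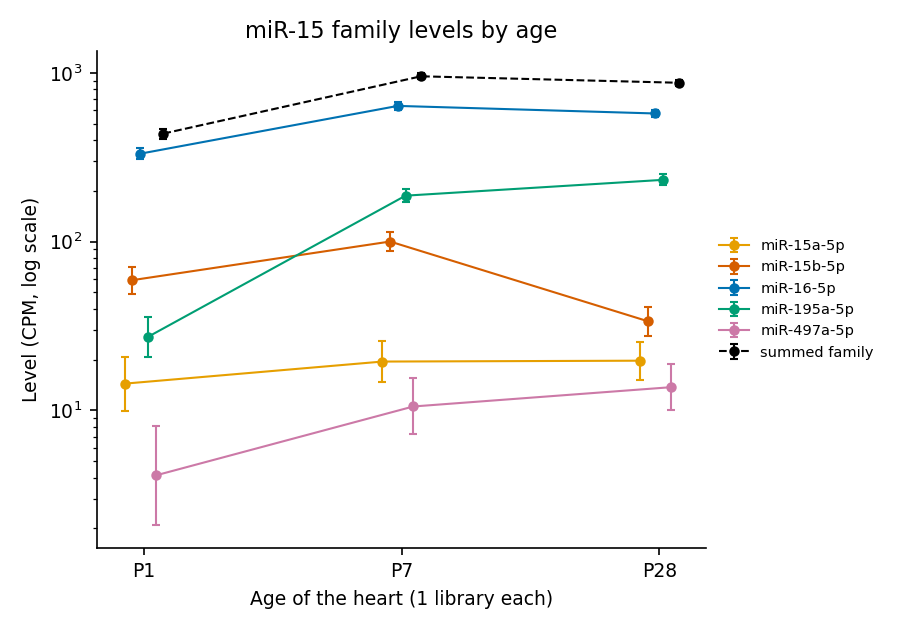
Level of each miR-15 family member and of their sum (CPM, log axis) in the P1, P7 and P28 libraries; points are single libraries, bars are 95% Wilson intervals for counting error, and lines join the ages. miR-195a-5p climbs from 27.3 to 233 CPM and passes miR-15b-5p between P1 and P7, while miR-15b-5p is highest at P7, at 100.2 CPM.

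The order of the members changed with age. At P1 it ran, from high to low, miR-16-5p, miR-15b-5p, miR-195a-5p, miR-15a-5p and miR-497a-5p, with neighbours in that order outside each other's counting intervals, although those of miR-195a-5p and miR-15a-5p nearly met. At P7 and at P28 miR-195a-5p stood above miR-15b-5p. miR-497a-5p had 0.542 reads per read of miR-15a-5p at P7 (95% Clopper-Pearson interval 0.323 to 0.891) and 0.696 at P28 (0.451 to 1.07), so the order of these lowest members was not settled at P28. These levels are reads of each miRNA, and how evenly the library preparation captured the different members was not measured.

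The make-up of the family does not depend on how libraries are scaled against each other, since each share is taken within a library. miR-195a-5p made up 6.24% of the family's reads at P1 (4.80 to 8.07), 19.6% at P7 (18.1 to 21.3), then 26.6% at P28 (24.9 to 28.4). miR-15b-5p went the other way, from 13.5% at P1 (11.4 to 15.99) to 10.5% at P7 (9.31 to 11.8), then 3.86% at P28 (3.17 to 4.69). miR-16-5p held most of the reads throughout, with 76.0% at P1 (73.0 to 78.8), 66.8% at P7 (64.8 to 68.6), then 65.7% at P28 (63.9 to 67.6). Its share was therefore lower after P1 and near level from P7 on. miR-15a-5p stayed between 2.04% and 3.29%, and miR-497a-5p between 0.941% and 1.57%.

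By gene cluster, the chromosome 11 pair of miR-195a-5p and miR-497a-5p went from 7.18% of the family's reads at P1 to 20.7% at P7, then 28.1% at P28. The remaining 3 members held 92.8%, 79.3% and 71.9%. The chromosome 3 and 14 clusters could not be separated further, because both make the same mature miR-16-5p.

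**Figure D2:**
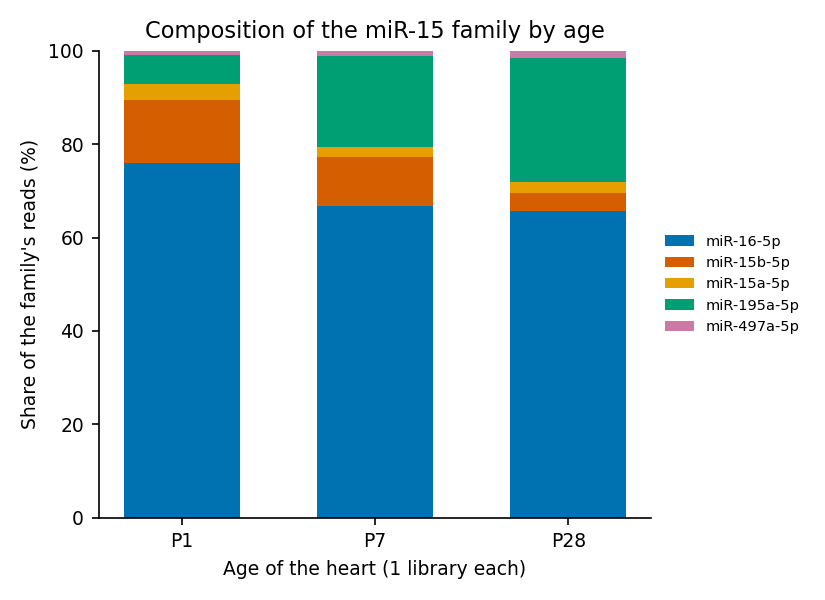
Share of each member in the summed reads of the family (percent) in the 3 libraries, stacked to 100%. The miR-195a-5p band widens from 6.24% at P1 to 26.6% at P28, and the miR-15b-5p band narrows from 13.5% to 3.86%.

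Reads of each member per read of miR-16-5p gave the same shift in a form that no scaling can alter. For miR-195a-5p, whose sequence is the nearest to it, this ratio was 0.082 at P1 (95% Clopper-Pearson interval 0.061 to 0.109), 0.294 at P7 (0.264 to 0.326), then 0.404 at P28 (0.369 to 0.443). For miR-15b-5p, made beside one of the miR-16 copies, it was 0.178 at P1 (0.145 to 0.217), 0.157 at P7 (0.137 to 0.180), then 0.0587 at P28 (0.0473 to 0.0722). Between libraries, the ratio of miR-195a-5p to miR-16-5p was 3.58 times as high at P7 as at P1 (exact 95% interval 2.65 to 4.92) and 1.38 times as high at P28 as at P7 (1.20 to 1.58). That of miR-15b-5p was 0.882 times as high at the first step (0.691 to 1.13) and 0.374 times at the second (0.289 to 0.480). The rise for miR-195a-5p at the second step depended on how the rows of miR-16-5p, described further on, were counted. miR-195a-5p against miR-15b-5p passed from 0.461 reads per read at P1 (0.326 to 0.643) to 1.87 at P7 (1.60 to 2.19), then 6.89 at P28 (5.55 to 8.62).

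The ratio between miR-195a-5p and its neighbour was less well measured. miR-195a-5p had 6.63 reads per read of miR-497a-5p at P1 (3.13 to 16.1), 17.8 at P7 (12.0 to 27.5), then 16.9 at P28 (12.3 to 24.1). The ratio was 2.68 times as high at P7 as at P1, with an exact 95% interval of 0.995 to 6.48 that just includes no change and rests on 8 reads of miR-497a-5p at P1. The ratio of miR-15b-5p to miR-15a-5p, the like members of the other clusters, was 4.11 at P1 (2.70 to 6.45), 5.15 at P7 (3.76 to 7.17), then 1.71 at P28 (1.22 to 2.43), and the P28 interval lay below both others.

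**Figure D3:**
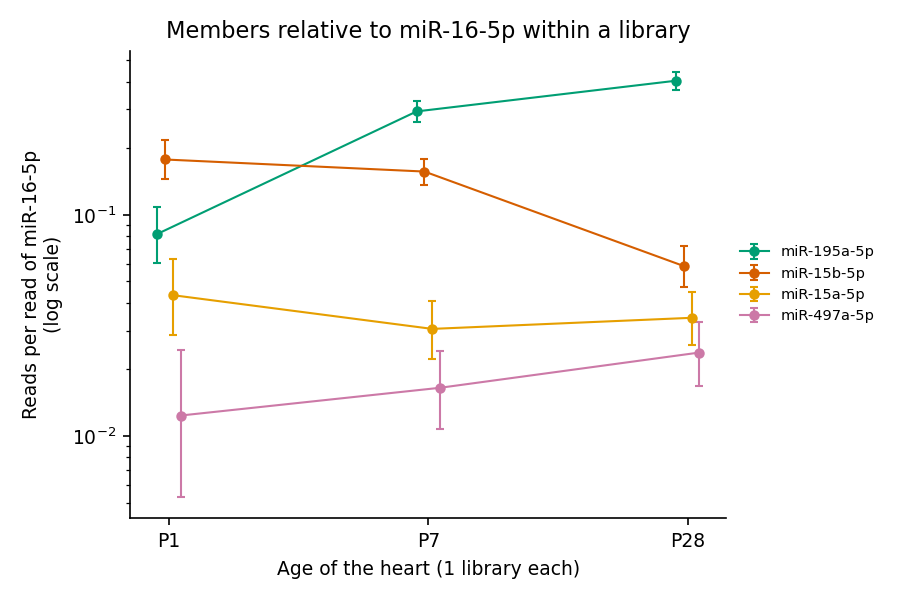
Reads of each member per read of miR-16-5p in the same library (log axis) at P1, P7 and P28, with 95% Clopper-Pearson intervals for counting error. miR-195a-5p rises from 0.082 to 0.404 while miR-15b-5p goes from 0.178 to 0.0587.

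The first comparison between libraries set P7 against P1, the week in which mouse cardiomyocytes leave the cell cycle. Ratios are log2 ratios of CPM with 0.5 reads added to each count, and a member was called when its CPM differed at least 2-fold. miR-195a-5p was 6.82-fold higher at P7 (log2 ratio 2.77, 95% Clopper-Pearson interval 2.37 to 3.22). The set used for comparison was the 279 accessions that averaged 10 CPM or more over the libraries, and 0 of them had a higher ratio. miR-497a-5p had a log2 ratio of 1.30 with a wide interval (0.17 to 2.71), and with a mean of 9.46 CPM it was the 1 member below that abundance limit.

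The other members were higher at P7 by less than 2-fold. miR-16-5p had a log2 ratio of 0.94 (0.81 to 1.08), an interval that reaches past 2-fold. miR-15b-5p had 0.76 (0.44 to 1.09), and miR-15a-5p had 0.42 with an interval that includes 0 (-0.27 to 1.16). Of the 4 members above the abundance limit, 1 was called higher and 0 lower, where 11.1% of all 279 accessions were called higher and 11.5% lower. Some of these accessions hold the counts of another. With such matching rows kept once, 8.96% of 268 accessions were called higher and 12.3% lower. Counting miR-497a-5p as well, 2 of 5 were higher, where 13.9% of the 483 accessions that averaged 1 CPM or more were. The summed family was 2.18-fold higher (log2 ratio 1.13, 1.01 to 1.24), and the median over the 5 members was 0.94 against 0.03 over the 279 accessions.

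The second comparison, P28 against P7, shares the P7 library with the first. miR-15b-5p was the called member, 2.96-fold lower at P28 (log2 ratio -1.56, -1.92 to -1.22). miR-195a-5p had a log2 ratio of 0.31 (0.14 to 0.49), miR-497a-5p 0.37 (-0.37 to 1.15) and miR-15a-5p 0.015 (-0.57 to 0.60). miR-16-5p had -0.15 (-0.25 to -0.05) and the summed family -0.13 (-0.21 to -0.05), and both signs turned positive when libraries were scaled by the TMM method, at 0.50 and 0.52. Thus 0 of 4 members were called higher and 1 lower, where 2.87% of the 279 accessions were called higher and 42.7% lower. The median over the members was 0.015 against -0.79 over all.

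The third comparison, P28 against P1, shares a library with each of the others. miR-195a-5p was 8.46-fold higher at P28 (log2 ratio 3.08, 2.69 to 3.52), a ratio that 2 of the 279 accessions exceeded. miR-497a-5p had a log2 ratio of 1.67 (0.62 to 3.05), miR-16-5p 0.79 (0.66 to 0.93) and miR-15a-5p 0.44 (-0.23 to 1.16). miR-15b-5p alone was lower at P28 than at P1, by less than 2-fold (-0.81, -1.21 to -0.40), and this came down to -0.16 with TMM scaling and -0.12 with DESeq2 size factors. Of the 4 members, 1 was called higher and 0 lower, where 13.6% of all accessions were called higher and 42.7% lower. The summed family had a log2 ratio of 1.00 (0.89 to 1.11), at the 2-fold limit, and the median over the members was 0.79 against -0.74 over all.

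The many lower calls at P28 depended on the scaling, which touches every ratio with that library. Under TMM scaling the median of the 279 accessions moved up by 0.64 for P28 against P7 and by 0.65 for P28 against P1. The split of calls then became 11.5% higher and 21.9% lower for P28 against P7, and 25.1% higher and 28.7% lower for P28 against P1. Scaling by the total without the 10 most abundant accessions gave 15.4% higher and 8.6% lower for P7 against P1. Under TMM scaling miR-15b-5p was below 2-fold for P28 against P7, at -0.92, and miR-195a-5p had 0.96 there and 3.73 for P28 against P1.

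**Figure D4:**
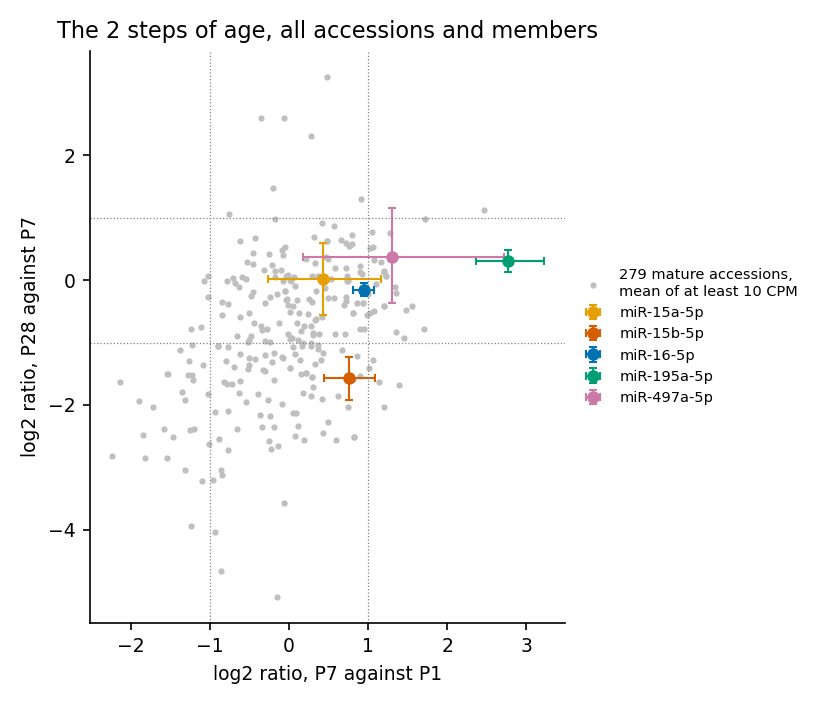
Log2 ratio of P7 against P1 (horizontal) and of P28 against P7 (vertical) for the 279 accessions that averaged 10 CPM or more (grey) and the 5 members (coloured, with 95% Clopper-Pearson intervals); dotted lines mark 2-fold, and both axes use the P7 library. miR-195a-5p lies farthest to the right, at 2.77, and miR-15b-5p lies below the lower 2-fold line, at -1.56.

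miR-16-5p was counted in 2 rows, as many as it has genomic copies, and these rows did not move together. The first row had 200 reads at P1, 278 at P7, then 579 at P28, or 103, 113 and 204 CPM. The second had 446, 1295 and 1056 reads, or 229, 525 and 372 CPM. From P1 to P7 the log2 ratio was 0.13 (-0.14 to 0.40) in the first row and 1.19 (1.04 to 1.35) in the second, and from P7 to P28 it was 0.85 (0.64 to 1.06) and -0.50 (-0.62 to -0.38). The first row thus held 31.0% of the miR-16-5p reads at P1, 17.7% at P7, then 35.4% at P28. Which row stands for the copy beside miR-15a and which for that beside miR-15b, and how reads that fit both copies were placed, is not given in the sources used here. Only the sum of the rows was used above. Against the first row, miR-15b-5p had 0.575 reads per read at P1 (0.453 to 0.727), 0.888 at P7 (0.746 to 1.06), then 0.166 at P28 (0.132 to 0.206). Against the second it had 0.258 (0.208 to 0.317), 0.191 (0.166 to 0.219) and 0.0909 (0.0730 to 0.112). The course of miR-15b-5p relative to miR-16-5p from P1 to P7 thus differed in direction between the rows, and from P7 to P28 it was downward against both. For miR-195a-5p the log2 ratio from P1 to P7, 2.77, was above those of both rows. From P7 to P28 its log2 ratio of 0.31 lay below that of the first row and above that of the second. Relative to miR-16-5p it therefore went down against the first row and up against the second at that step.

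Other miRNAs carry the same seed and can bind the same kind of site. Of 1679 mature mouse names in the RefSeq table, 10 had the seed of the members, and 5 of these were not members. miR-322-5p, from an X-linked cluster known from muscle differentiation, is one of them, and it was compared with miR-503-5p, its cluster neighbour and a wider relative that differs in the last seed base. Both are printed with bases 2 to 8 in capitals.
miR-322-5p: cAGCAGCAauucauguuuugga
miR-503-5p: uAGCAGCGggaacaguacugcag
The other 4 names with that seed were not analysed here. The accessions of these relatives and of the markers below were named from general knowledge of miRBase, because the count table holds accessions only. Of 19 so named, 11 had an entry by that name in RefSeq, and for all 11 the number of rows in the table equalled the number of genomic copies. Apart from miR-9-5p, with 3, each of these had 1 row and 1 copy. The table holds 2035 mature rows for 1900 accessions, so a wrong accession would mostly have 1 row too, and this check is weak.

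Both relatives were at least 2-fold lower at P28 than at P7, and miR-503-5p was already so at P7 against P1. Of the 279 accessions, 42.7% were called lower for P28 against P7 and 11.5% for P7 against P1. TMM scaling moved every ratio of P28 against P7 up by 0.64. miR-322-5p had 295 reads at P1, 386 at P7, then 101 at P28, or 152, 157 and 35.5 CPM. Its log2 ratio was 0.04 for P7 against P1 (-0.18 to 0.27) and -2.13 for P28 against P7 (-2.47 to -1.82). miR-503-5p had 1029, 525 and 73 reads, or 529, 213 and 25.7 CPM, with log2 ratios of -1.31 (-1.47 to -1.16) and -3.04 (-3.43 to -2.70). At P1 miR-503-5p stood above every member, miR-16-5p included. At P28 it had 73 reads against 96 of miR-15b-5p, the member called lower over the second step. Whether that order is beyond counting error was not tested. Counting miR-322-5p with the 5 members, the reads with the shared seed came to 589, 1112 and 910 CPM in order of age. miR-322-5p was 25.8% of these at P1 (23.3 to 28.4), 14.1% at P7 (12.8 to 15.4), then 3.90% at P28 (3.22 to 4.72), and miR-195a-5p was 4.63%, 16.8% and 25.5%. Between P1 and P28, miR-322-5p and miR-195a-5p thus changed places among the same-seed reads.

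**Figure D5:**
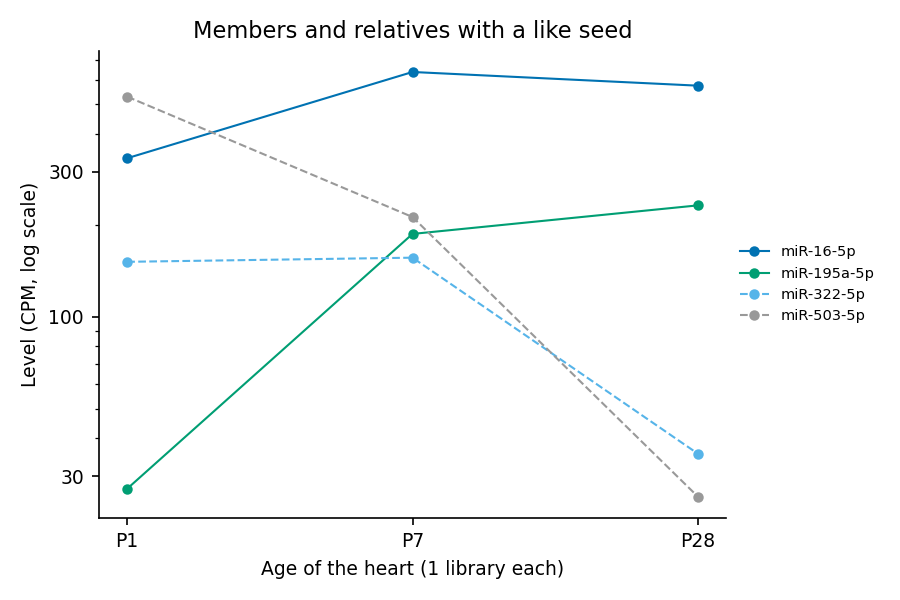
Level (CPM, log axis) of miR-16-5p and miR-195a-5p (solid lines) and of the relatives miR-322-5p and miR-503-5p (dashed lines) in the 3 libraries, single values with no error bars drawn. miR-503-5p goes from 529 CPM at P1 to 25.7 CPM at P28 and miR-322-5p from 152 to 35.5 CPM, while miR-195a-5p goes from 27.3 to 233 CPM.

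Among accessions that averaged 100 CPM or more, the pattern nearest to each member was found by the distance over the log2 ratios of both steps, P7 against P1 and P28 against P7, which rest on the same 3 libraries. miR-16-5p lay close to MIMAT0000131, at a distance of 0.083. MIMAT0000131 was also the nearest to the summed family, at 0.16. It was followed at 0.22 by miR-486a-5p, listed with the erythroid markers below, and by another accession with equal counts. For miR-15a-5p an accession with no name here was nearest, at 0.070, and the cardiomyocyte marker miR-133a-3p was second, at 0.109. The intervals of both its ratios, -0.27 to 1.16 and -0.57 to 0.60, were wider than these distances, so that order was not settled. miR-15b-5p had MIMAT0000666 at a distance of 0.14, with 300.4, 558 and 193 CPM at P1, P7 and P28. For miR-195a-5p the nearest of 133 candidates lay at a distance of 1.41. Accessions below 100 CPM were not among the candidates, and 1 of them, the leukocyte marker miR-150-5p, had log2 ratios of 2.46 and 1.12, beside 2.77 and 0.31 for miR-195a-5p. It is given here after its values were seen.

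The hearts matched their label, with miR-1a-3p and the other cardiomyocyte markers, 4 of 4 above 10 CPM, summing to between 437846 and 461711 CPM, nearly all of it miR-1a-3p. Within that list, miR-208a-3p had a log2 ratio of 1.35 for P7 against P1, and miR-499-5p had -1.51 for P28 against P7 and -1.36 for P28 against P1. Markers of blood cells, like the family, were higher at P7 than at P1. So were markers of other cell types, among them miR-126a-3p and miR-145a-5p. The 3 erythroid markers miR-451a, miR-144-3p and miR-486a-5p, the last with counts equal to those of another accession, summed to 377, 867 and 897 CPM in order of age, each at least 2-fold higher at P7 than at P1, and red cells are known to be rich in miR-16. Of the 279 accessions, 11.1% were called higher for P7 against P1. Most of the erythroid sum was miR-486a-5p, at 303, 709 and 744 CPM. The summed erythroid log2 ratio was 1.20 for P7 against P1 and 0.05 for P28 against P7. For the same comparisons miR-16-5p had 0.94 and -0.15, and miR-195a-5p had 2.77 and 0.31. The erythroid markers differed for P28 against P7. miR-451a had 0.29 (0.03 to 0.56), miR-144-3p had -0.52 (-0.84 to -0.20) and miR-486a-5p had 0.07 (-0.02 to 0.16). The 4 leukocyte markers, 2 of them above 10 CPM, summed to 17.5, 59.2 and 95.7 CPM and were all at least 2-fold higher at P7 than at P1. At P1, miR-142a-3p, miR-223-3p, miR-150-5p and miR-155-5p had only 6, 7, 7 and 14 reads. The interval of miR-223-3p for P7 against P1, -0.13 to 2.66, includes no change. Of the 483 accessions that averaged 1 CPM or more, 13.9% were called higher in that comparison. The summed log2 ratio of the leukocyte markers was 1.74 for P7 against P1 and 0.69 for P28 against P7, beside 1.13 and -0.13 for the summed family. The endothelial marker miR-126a-3p had 13079, 30069 and 22480 CPM, with log2 ratios of 1.20 for P7 against P1 and -0.42 for P28 against P7. The 2 smooth muscle markers summed to between 59197 and 85173 CPM, nearly all of it miR-143-3p. For the same comparisons, miR-143-3p had log2 ratios of -0.06 and 0.53, and miR-145a-5p had 0.75 and 0.016. The neuronal marker miR-124-3p had 0, 1 and 0 reads, and miR-9-5p brought the neuronal sum to between 33.4 and 67.9 CPM. The hepatic marker miR-122-5p lay between 0.704 and 12.9 CPM and was highest at P1. The part of blood, endothelial or other cells in the levels of the family was not tested.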

How the data were processed

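The samples were 3 small RNA libraries of mouse hearts, 1 for each age. Per the labels, RNA was extracted with the mirVana kit and libraries were made with a NEBNext small RNA kit. The authors deposited raw read counts per miRBase accession, not normalized. The submitters' processing notes name TopHat, bcl2fastq and mm10, and the assignment of reads fitting several places is not given in the sources used here. Library totals in order of age were 1944237, 2465680 and 2842526 counts, and 3 reads equal 1.54, 1.22 and 1.06 CPM. These totals include 12 rows whose counts matched a row of another accession within 1%, among rows of at least 300 reads.

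Rows of an accession were summed and divided by the library total. The members, chosen by name, and the gene lists and thresholds were set with earlier results of these data known. The named miRNAs were the 5 members, relatives that averaged 10 CPM or more, cell type markers, and the nearest patterns among accessions of at least 100 CPM, of which those with no name here are limited to 3. Variation between hearts cannot be measured from single libraries, so the report gives no test between ages, and the intervals cover counting error only. The edgeR exact test below, run only as an alternative, takes its variation from an assumption and compares single libraries. Molecular identifiers are not mentioned in the sources. Shares and levels have Wilson intervals, and ratios have Clopper-Pearson intervals computed from the counts with nothing added. The log2 ratios themselves have a pseudocount of 0.5 reads, which understates changes of low miRNAs. The opposite arms of the hairpins were not analysed here. Changes of a within-library ratio between libraries are conditional odds ratios with exact intervals, added after the values were seen.

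Alternatives were TMM scaling and the exact test of edgeR 4.0.16 with an assumed variation, size factors of DESeq2 1.42.0, other totals, rows, pseudocounts, folds and filters. Sequences and loci came from RefSeq for GRCm38.p6 and gene overlaps from GENCODE M21. Scripts ran in Python 3.11.15 (scipy 1.17.1, matplotlib 3.10.9, numpy 2.4.6, pandas 2.3.3) and R 4.3.3.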

Additional observations from a re-analysis of the deposited data

How the results depend on the processing

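No paired analysis was possible because only 1 library was analysed for every age, and leaving out a replicate was not possible either. Depth limits miR-497a-5p and miR-15a-5p most, with at most 56 reads in a library. The log2 ratio of the summed family for P7 against P1 was 1.26 when the total left out the 10 most abundant accessions. For P28 against P7 it was 0.52 with TMM scaling, 0.60 with DESeq2 size factors and 0.22 without the 10 most abundant, so its sign depended on the scaling. For P28 against P1 it was 1.65, 1.69 and 1.48 under the same settings. The median over the members was 1.19 for P7 against P1 with the largest row of each accession. For P28 against P7 it was 0.66 with TMM, 0.74 with DESeq2 and -0.0024 with a pseudocount of 5 reads, and for P28 against P1 it was 1.44 with TMM, 1.48 with DESeq2 and 1.27 without the 10 most abundant. Another scaling moves all ratios of a comparison by one amount, by its construction. The median of 1.19 was the ratio of miR-16-5p taken from its second row alone. The median of -0.0024 was the ratio of miR-15a-5p with 5 reads added. Why the rows of miR-16-5p differ was not tested.

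Counts of members called are given with the share of all accessions called at the same setting. Members higher at P7 than at P1, 1 in the report, were 2 without the 10 most abundant (15.4% of all), with the largest row (11.5%), with a filter at 1 CPM (13.9%) and with no filter (24.4%), and 3 at 1.5-fold (25.1%). The edgeR exact test with variation assumed at 0.4 called 0 of 279 accessions in either direction there, miR-195a-5p among them with an unadjusted p of 0.00229. For P28 against P7, 1 member was higher with DESeq2 (14%), and 0 were lower, in place of 1, with TMM (21.9%), with DESeq2 (20.4%), at 4-fold (15.8%), at a filter of 100 CPM (32.8%), which leaves miR-15b-5p out, and in the edgeR exact test at 0.4 (3.58%), where miR-15b-5p had an unadjusted p of 0.0720. For P28 against P1, 3 were higher with TMM (25.1%) and with DESeq2 (25.8%), and 2 without the 10 most abundant (21.1%), at 1.5-fold (19%), with a filter at 1 CPM (15.7%) and with no filter (20.2%), and 1 was lower at 1.5-fold (52.7%). The other 59 recomputed counts stayed within 1.5 times the reported one.

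With the largest row of miR-16-5p in place of both, its share of the family in order of age was 68.6%, 62.3% and 55.3%. The share of miR-195a-5p was then 8.15%, 22.2% and 34.6%, that of miR-15b-5p 17.7%, 11.9% and 5.03%, and that of miR-15a-5p at P28 2.94%. The log2 ratio of miR-195a-5p ranged over all settings from 2.67 to 2.90 for P7 against P1 and from 2.97 to 3.77 for P28 against P1, and that of miR-15b-5p from -1.56 to -0.84 for P28 against P7.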
